A study of Mus musculus with 12 samples.

Results

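MHC (major histocompatibility complex) class I and antigen processing genes were followed across the colon and whole blood of mice with dextran sulfate sodium-induced ulcerative colitis (DSS-UC) and of controls. They were chosen by gene symbol, and are 10 of the 53801 genes in the count table: the class I heavy chains H2-K1 and H2-D1, the light chain B2m, the peptide transporter subunits Tap1 and Tap2, the loading factor Tapbp, the immunoproteasome subunits Psmb8, Psmb9 and Psmb10, and the regulator Nlrc5. All 10 were present in the normalized tables of both tissues and passed the filter on low counts in every comparison. Total RNA was sequenced from 6 male C57BL/6 mice, 8 weeks old when obtained and selected by disease activity. Per the labels, the UC mice (numbers 1, 2 and 4) drank water with 1.5% (wt/vol) DSS, a polymer that injures the gut lining, for 7 days. The control mice (7, 8 and 9) drank the same water without it, and every mouse was killed on day 8. This gives 4 groups of 3 libraries, UC colon, control colon, UC blood and control blood, and no engineered allele is named for any of them.

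Class I molecules present short peptides from inside the cell to CD8 T cells. Proteins are cut by the proteasome, the peptides are pumped into the endoplasmic reticulum by the Tap1 and Tap2 transporter, and tapasin (Tapbp) helps to load them on a heavy chain paired with B2m. Interferon-gamma induces the immunoproteasome subunits, which take the places of constitutive ones in the proteasome core, Psmb8 that of Psmb5, Psmb9 that of Psmb6 and Psmb10 that of Psmb7. NLRC5 is a co-activator that is recruited to class I promoters. In the gut, epithelial cells and leukocytes both carry class I molecules.

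Total counts per library were 69181049 to 103662306 for colon and 80867247 to 142536804 for blood, and the 7SL RNA genes took 35.9% to 65.4% of the blood counts against 4.90% to 6.50% in the colon. The labels state the tissue in 2 fields that disagree in every sample. The groups follow the tissue characteristic, which the markers match: summed normalized counts of 5 epithelial genes were at least 520110 in each library labelled colon, and those of 4 of them at most 183.6 in each labelled blood, where Krt8 was at 0 in mice 4 and 7 and Vil1 in mice 2, 7 and 8. The disease labels did not go with the neutrophil markers: all 4 (S100a8, S100a9, Ly6g and Cxcr2) had their 3 highest normalized counts in mice 1, 7 and 9, in colon and in blood. In the colon, S100a8 was at 5370, 33.1 and 22.3 normalized counts in mice 1, 2 and 4, and at 1888, 75.6 and 13337 in mice 7, 8 and 9. The deposited normalized tables list their columns in the mouse order 1, 7, 9, 2, 4 and 8, and why is not given in the sources used here. The groups are therefore called by their labels, and every direction between them is one between labelled libraries.

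The genes lie on 3 chromosomes (GENCODE vM21, GRCm38, all protein-coding). In the MHC region of chromosome 17 are H2-K1 (33996017 to 34000347, minus strand), Tapbp (33915899 to 33929292, plus), Psmb9 (34181987 to 34187764, minus), Tap1 (34187553 to 34197225, plus), Psmb8 (34197721 to 34201454, plus), Tap2 (34203527 to 34216321, plus) and H2-D1 (35262730 to 35267499, plus). B2m is on chromosome 2 (122147686 to 122153083, plus), and Psmb10 (105935735 to 105938444, minus) and Nlrc5 (94434356 to 94527272, plus) are on chromosome 8. Tap1 and Psmb9 are divergent neighbours whose exons share 212 bases on opposite strands. Since the quantification as described sets no library strand, counts from this stretch, 3.87% of the Tap1 and 5.79% of the Psmb9 exon bases, cannot be told apart. Larger shares of Tapbp (24.9%, Gm19412), Psmb8 (14.7%, Gm20496) and Tap2 (14.1%, Gm15821) lie opposite predicted antisense genes. Of the H2-D1 transcript, 4.64% of 100-base windows occurred also in transcripts of other genes, mostly H2-Q1, and 0% of the H2-K1 and B2m windows did.

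RefSeq promoter windows (GRCm38.p6, 250 bases before to 50 after the start) were found for 8 of the 10 genes, all but Tap2 and Nlrc5 (for H2-K1 the first of 2 entries was used). They are shown because the class I promoters share a known layout, an interferon-responsive element followed by an X box that includes a CRE-like sequence and a reversed CCAAT box, at which NLRC5 acts with the RFX, CREB and NF-Y factors. Stretches of 110 bases before the start are given 5′ to 3′ on the gene's strand. Capitals mark matches, on either strand, to the interferon patterns GAAANNGAA (in 8.56% of all 32851 windows) or AANNGAAA (23.9%), the GAS pattern TTCNNNGAA (8.30%), CCAAT (37.4%) or TGACG (20.8%).
H2-K1 (chr17:34000349-34000458, minus strand): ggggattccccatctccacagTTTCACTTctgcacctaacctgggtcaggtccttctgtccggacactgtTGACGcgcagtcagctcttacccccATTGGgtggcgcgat
H2-D1 (chr17:35262923-35263032, plus strand): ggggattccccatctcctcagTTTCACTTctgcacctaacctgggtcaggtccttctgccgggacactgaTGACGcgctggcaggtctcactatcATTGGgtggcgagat
B2m (chr2:122147539-122147648, plus strand): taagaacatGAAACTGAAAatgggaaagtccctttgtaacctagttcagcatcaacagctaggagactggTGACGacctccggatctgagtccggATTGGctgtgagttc
Tap1 (chr17:34187400-34187509, plus strand): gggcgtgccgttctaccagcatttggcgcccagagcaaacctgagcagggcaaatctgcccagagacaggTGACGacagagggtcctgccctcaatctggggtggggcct
Psmb8 (chr17:34198048-34198157, plus strand): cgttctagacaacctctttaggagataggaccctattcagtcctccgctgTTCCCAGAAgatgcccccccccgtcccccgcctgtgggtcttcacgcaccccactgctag
The first 3 sequences have TGACG and, 25 bases after its start, ATTGG, the reverse of CCAAT. This spacing, noticed after the matches were seen, occurs in 31 of the 32851 windows (0.0944%). These include 2 windows of H2-K1 and 1 each of H2-D1 and B2m. Of 17 other class I heavy chain genes only H2-M3 is among them. The remaining windows belong to genes outside the lists used here, such as Calu, Hnrnpf and Per1. The H2-K1 and H2-D1 stretches are identical at 98 of 110 positions (89.1%), and H2-K1 and B2m at 46 (41.8%). In B2m both interferon patterns match the same bases, GAAACTGAA and AACTGAAA overlapping. The Tap1 stretch has TGACG without the reversed CCAAT box at that distance, and its window shares 275 of its 300 bases with that of Psmb9. In the Psmb8 stretch, the GAS pattern was matched and none of the others. The Tapbp window held only CCAAT matches and the Psmb10 window none of the 5 patterns. A match is a run of letters and not a measured binding site.

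The levels in the colon fell into 3 tiers when counted per length. In normalized counts (the authors' table) per kilobase of exon, the colon medians over 6 libraries were 36260 for B2m, 20239 for H2-D1 and 16117 for H2-K1, then 5299 for Tapbp and 3719 for Psmb10. The third tier held Tap2 (818), Psmb8 (752), Tap1 (422), Psmb9 (332) and Nlrc5 (150). The ranges of genes within a tier overlapped, and those of genes in different tiers did not. In blood, on the separately scaled blood table, B2m (44365 per kilobase) stood above H2-D1 (12495) and H2-D1 above H2-K1 (6936), with no overlap between these 3. The blood medians of the other 7 ran from 926 for Psmb8 to 308 for Tap2, and each of them overlapped its neighbour in the order.

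Nlrc5 and Tap1 differed most between the colon libraries. Nlrc5 had 1843, 353 and 704 normalized counts in mice 1, 2 and 4, labelled UC, and 4272, 343 and 5499 in mice 7, 8 and 9, labelled control. The highest value was 16.0 times the lowest, and mouse 8 lay below every library labelled UC while mice 7 and 9 lay above them. Tap1, which forms the peptide pump with Tap2, had 2941, 1157 and 1686 normalized counts under the UC label and 5607, 910 and 8721 under the control label, a 9.58-fold range. Its partner Tap2 varied less, at 3632, 2332 and 2554 against 3818, 2392 and 5182, a 2.22-fold range. Both had their 3 highest values in mice 1, 7 and 9, so that the labelled groups overlapped.

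The immunoproteasome genes, too, had their 3 highest colon values in mice 1, 7 and 9. Psmb8, the chymotrypsin-like subunit, was at 3435, 1176 and 1651 normalized counts in colon mice 1, 2 and 4 and at 5541, 1529 and 5408 in mice 7, 8 and 9. Psmb9, which takes the place of Psmb6, was at 1487, 946 and 812 against 2816, 773 and 3150. Psmb10 was at 6939, 3717 and 5742 against 7147, 4476 and 8726. The highest over the lowest library was 4.71 for Psmb8, 4.08 for Psmb9 and 2.35 for Psmb10. The constitutive subunits that they replace varied less over these libraries, from 3457 to 4778 for Psmb5, from 5544 to 7355 for Psmb6 and from 5429 to 7902 for Psmb7.

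The presenting molecules differed in how far they moved. B2m was at 42010, 14595 and 20358 normalized counts under the UC label and at 54117, 13442 and 44658 under the control label, a 4.03-fold range. H2-D1 was at 65331, 32846 and 38171 against 73995, 39061 and 67347, a 2.25-fold range. H2-K1 was at 48220, 32972 and 47824 against 54744, 46882 and 42327, a range of 1.66. It alone of the 10 did not have its 3 highest values in mice 1, 7 and 9, but in mice 1, 4 and 7. Tapbp, the tapasin gene, was at 21967, 13897 and 18732 against 19719, 18110 and 20778, the smallest range of the 10 at 1.58.

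**Figure D1:**
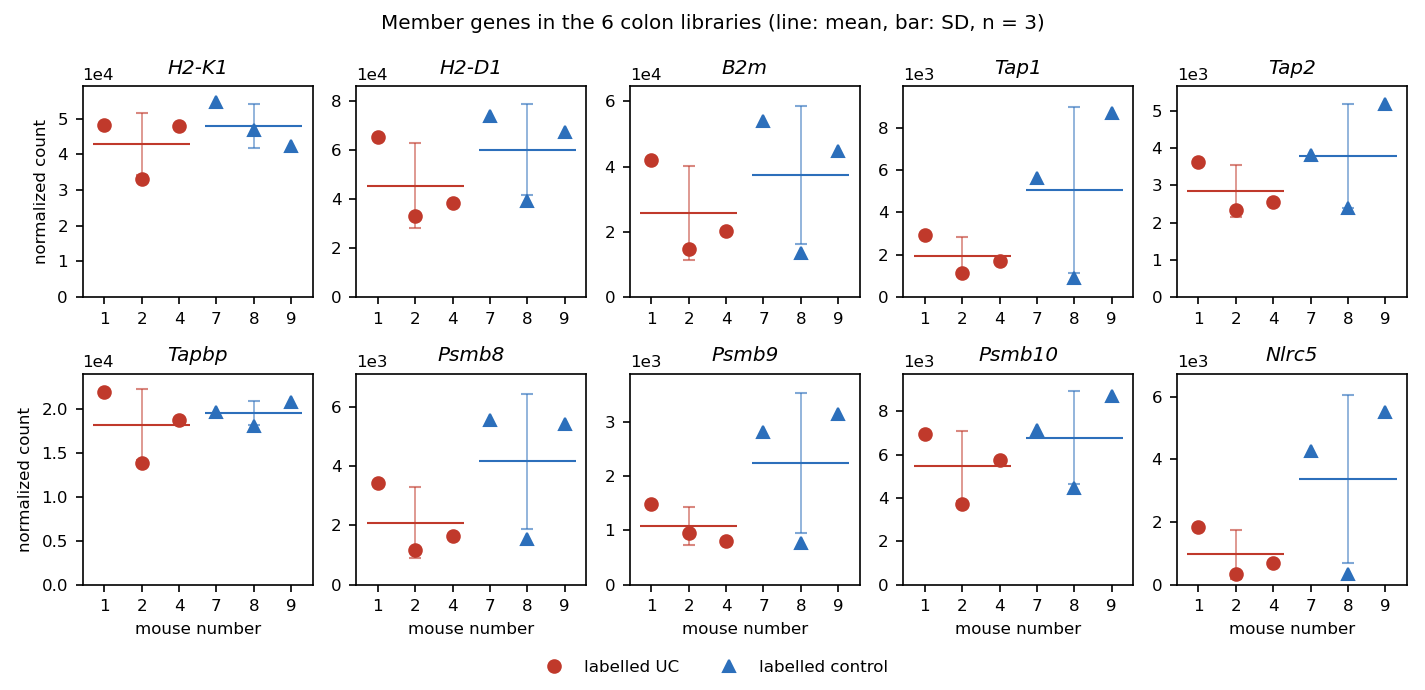
Normalized counts (linear axes from 0) of the 10 genes in the 6 colon libraries by mouse number, with circles for libraries labelled UC, triangles for those labelled control, a line at each group's mean and a bar of 1 SD (n = 3). Mouse 8, labelled control, sits with mice 2 and 4 for most genes, and the labelled groups overlap in every panel.

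In the colon 9 of the 10 genes had their 3 highest normalized counts in mice 1, 7 and 9, against 18.2% of all genes tested there. In the blood 0 of 10 had that order (background 11.8%), and H2-K1 was the 1 gene with its 3 highest values in mice 2, 4 and 8 (background 7.23%). The spread between libraries is given as a description, with no test. The median SD of log2(normalized count + 1) over the 6 colon libraries was 0.697 for the 10 genes and 0.340 for the 15827 genes with a mean of at least 100. In the blood it was 0.315 for the 10 and 0.349 for 11104 genes. Because whole tissues were sequenced, fewer cells of a type and less RNA per cell cannot be told apart in any of these values.

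In blood, Nlrc5 was at 3854, 3143 and 3053 normalized counts in mice 1, 2 and 4 and at 4116, 2828 and 3071 in mice 7, 8 and 9. Its highest blood library was 1.46 times its lowest. The largest range in blood was that of Tap1, at 2754, 1654 and 1937 under the UC label and 2159, 1390 and 1201 under the control label, or 2.29-fold. B2m was at 27308, 45582 and 34501 against 39156, 37152 and 42269, with the lowest value in mouse 1. H2-D1, in contrast, was highest in mouse 1, at 44350 against 25562 to 33834 in the other 5 blood libraries. The other 6 genes had ranges between 1.66 and 2.27 in blood, and the labelled groups overlapped for all 10.

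**Figure D2:**
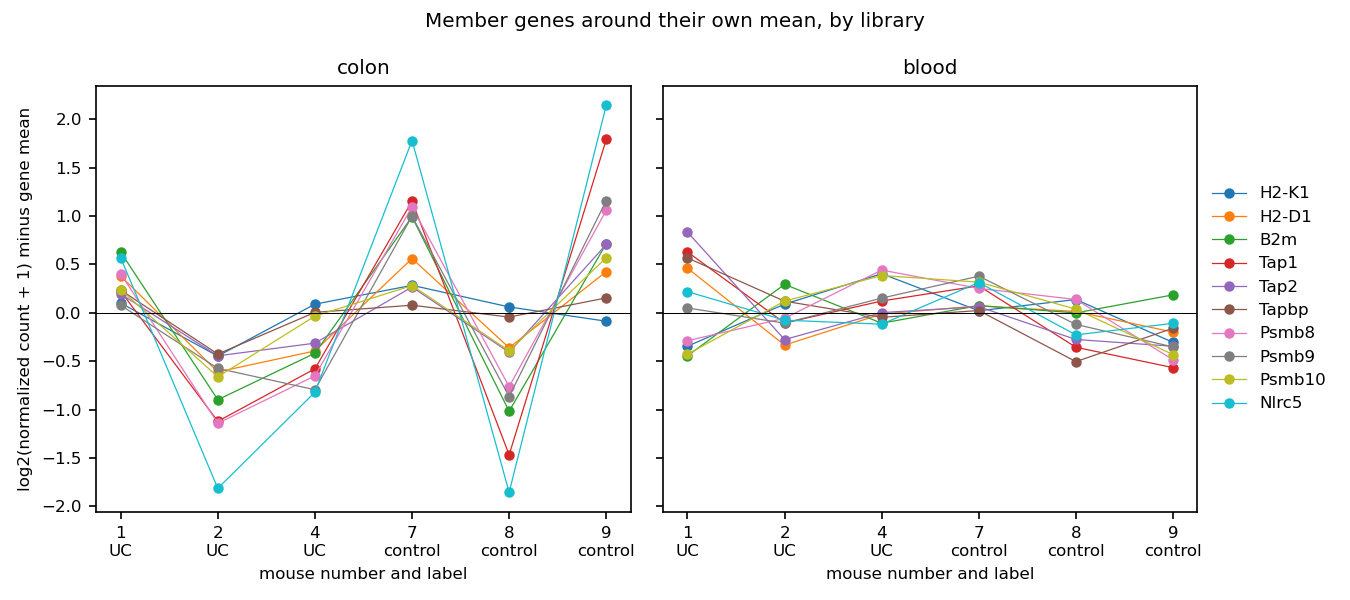
Deviation of log2(normalized count + 1) from each gene's own mean over the 6 libraries of a tissue (y axis, log2 units) by mouse number and label (x axis), for the colon on the left and the blood on the right. Lines only join the points of 1 gene. The colon points spread widely with low values in mice 2, 4 and 8 for most genes, and the blood points stay closer to 0.

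Leukocyte markers moved with this order in the colon. Ptprc, the pan-leukocyte CD45 gene, had 4048, 1945 and 2720 normalized counts in colon mice 1, 2 and 4 and 7451, 1185 and 7528 in mice 7, 8 and 9. All 4 T cell markers and all 4 monocyte and macrophage markers had their 3 highest colon values in mice 1, 7 and 9. The summed T cell level was 84.5 to 584.4 under the UC label and 92.01 to 619.6 under the control label. The monocyte and macrophage sum was 3489 to 6953 and 3034 to 10663. Of 3 NK cell markers 1 had that order, with sums of 47.0 to 233.9 and 104.6 to 538.7 and Ncr1 at 0 in mouse 2. The neutrophil sum ran from 7405 to 32489 and from 17660 to 57935, with Cxcr2 at 0 in mice 4 and 8. In mice 2, 4 and 8 this sum was nearly all Ly6g (7350, 16355 and 17455), with S100a8 at 33.1, 22.3 and 75.6. The range of the sum therefore does not show that of the other neutrophil markers. For B cells and for epithelium 0 of 4 and 0 of 5 markers had it, and the epithelial sum ran from 582890 to 682580 and from 520110 to 809490. Among the 3 fibroblast markers 2 did, and the sums ran from 49242 to 80312 and from 46059 to 147950. The part of these cells in the levels of the class I genes was not tested.

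The genes whose colon pattern was most like the mean of the 10 were found by Pearson's r over the 6 colon libraries, among 15817 genes with a mean of at least 100. They were Tnfaip8 (r = 0.998), Cd244a (0.998), C1qa (0.998), Gbp2 (0.998) and C1qb (0.998). Cd244a encodes a receptor of NK and T cells, C1qa and C1qb encode complement chains made by macrophages, and Gbp2 encodes an interferon-induced GTPase. Gbp2 was at 12019, 2181 and 4856 normalized counts in mice 1, 2 and 4, and at 22416, 2668 and 31552 in mice 7, 8 and 9. In blood the closest were Lrrc14 (r = 0.992), Rasa4 (0.987), Dus1l (0.986), Ciita (0.983) and Txlna (0.981), among 11094 genes. Ciita, the class II relative of Nlrc5, was at 3318, 3087 and 3463 against 3402, 2977 and 2723. These r describe 6 libraries each and carry no test. Single members followed the mean profile to different degrees. The r with it, of which each gene is a part, was 0.997 for Nlrc5, 0.993 for Psmb8 and 0.495 for H2-K1 in the colon, and ran from -0.512 for B2m to 0.937 for Psmb9 in blood.

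The comparison of UC with control colon speaks of the labelled libraries only, since the neutrophil markers did not go with the labels. Whether DSS colitis changes these genes in the gut cannot be read from it. The study, with DESeq2 at the thresholds given next, reported widespread changes between UC and control colon. In the libraries as labelled, DESeq2 called 6 of 22238 genes. With the libraries as labelled, 0 of the 10 genes were called (edgeR quasi-likelihood test, Benjamini-Hochberg adjusted p of at most 0.05 and absolute log2FC over 1), and 0.0045% of 22238 genes tested were. None had an unadjusted p under 0.05 in this edgeR fit. In an edgeR fit of all 12 libraries 3 of the 10 had one, against 415 of 23258 genes, and 0 were called. DESeq2 called 0, with 1 at an unadjusted p under 0.05, and limma-voom called 0, with 0. All 10 fitted log2FC were negative, lower under the UC label, with a median of -0.49 against -0.01 over all genes tested. The lowest was that of Nlrc5, at -1.81 (SE 1.01, edgeR adjusted p 0.9999), from means of 966.5 ± 779.2 and 3371 ± 2693 normalized counts (UC and control label, SD, n = 3). Tap1 followed at -1.40 (SE 0.764), with 1928 ± 916.1 against 5079 ± 3932, then Psmb9 at -1.06 (SE 0.528) and Psmb8 at -1.0 (SE 0.586). H2-K1 (-0.17, SE 0.221) and Tapbp (-0.12, SE 0.204) had the smallest differences. For 0 of the 10 were the labelled groups apart, against 5.66% of all genes. The median log2FC of the 10 was -0.94 without mouse 1, -0.29 without mouse 2 and -0.81 without mouse 8. Without mouse 8, 5 of the 10 had an unadjusted p under 0.05, against 8.4% of the 23122 genes in that fit, and 0 were called. Without mouse 1, 1 of the 10 had such a p, against 795 of 22754 genes, and 0 were called.

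In blood, likewise, 0 of the 10 genes were called, with 0 at an unadjusted p under 0.05, and 0% of 16759 genes were called by edgeR, of which 241 had an unadjusted p under 0.05 (DESeq2 called 6). Of the fitted log2FC, 9 were above 0 (0.00 after rounding for Nlrc5) and that of B2m was -0.14, and the largest were those of Tap2 (0.44, SE 0.316), Tapbp (0.43, SE 0.249) and Tap1 (0.41, SE 0.304). The median of the 10 was 0.08, against 0.04 over all genes. It depended on single libraries and on the scaling, at 0.02 without mouse 4, 0.22 without mouse 7, 0.14 without mouse 8, -0.03 without mouse 9 and -0.17 when only library size was used. DESeq2 and limma-voom called 0 of the 10, with 0 at an unadjusted p under 0.05 in each. The labelled groups were apart for 0 of the 10, against 6.5% of all genes.

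An interaction term, fitted to the 12 libraries together, tested whether the label's effect differed between colon and blood. It was called for 0 of the 10 genes (edgeR, adjusted p of at most 0.05), against 0.0043% of 23258 genes, and 0 had an unadjusted p under 0.05. DESeq2, limma-voom and a fit that takes the mouse as replicate block called 0 of the 10 too. The differences were all negative, with a median of -0.72, and the largest were those of Tap1 (-1.82, SE 0.898, edgeR adjusted p 1) and Nlrc5 (-1.82, SE 1.11, edgeR adjusted p 1). The median was -0.37 under library size alone, where that of all genes was 0.25.

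**Figure D3:**
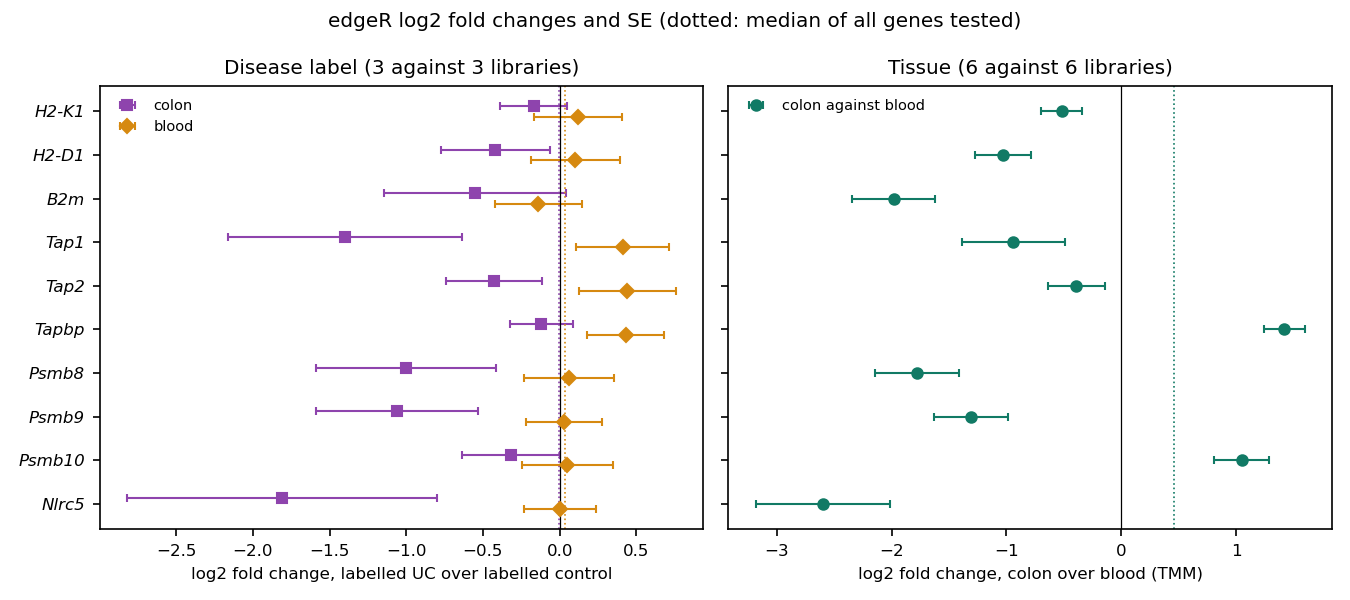
Fitted log2 fold changes with bars of 1 SE. On the left, libraries labelled UC over those labelled control (colon squares, blood diamonds, 3 against 3); on the right, colon over blood on the TMM scale (6 against 6). Dotted lines mark the median of all genes tested. In the left panel no gene was called, and in the right panel only Tapbp and Psmb10 are above 0, whereas under library size alone 9 of the 10 are.

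The other genes of the pathway were examined as lists. None of 17 other class I heavy chain genes, 5 loading and trimming genes, 18 constitutive proteasome and regulator genes, 19 tested regulators or 6 tested class I receptor genes was called by edgeR between the labelled colon groups. In blood, 13, 5, 18, 20 and 7 genes of these lists were tested and 0 called. Of all genes tested, edgeR called 0.0045% in the colon and 0% in the blood, so these counts say little about the lists. The median log2FC of the lists in the colon was -0.25, -0.20, -0.08, -0.15 and -1.21, in that order, and in the blood -0.02, 0.08, -0.03, 0.04 and 0.22. Of all these genes, Irf9 in the colon (log2FC -0.73, SE 0.273) and Psmb2 in the blood (0.49, SE 0.208) had an unadjusted p under 0.05. Irf1, a transcription factor that binds interferon elements, was at 16477, 6521 and 14077 normalized counts in colon mice 1, 2 and 4, and at 18575, 10060 and 25848 in mice 7, 8 and 9. Socs1, an inhibitor of interferon signalling, had the lowest log2FC of the regulators in the colon (-1.71, SE 0.879). Ifng, the gene of interferon-gamma itself, had 0 to 9 counts in 5 colon libraries and 131 in mouse 9.

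H2-T3, the thymus leukemia antigen gene of gut epithelium, also had its 3 highest colon values in mice 1, 7 and 9. Its colon counts were 3582 in mouse 1 and 1628 in mouse 7, and 9, 25, 16 and 57 in mice 2, 4, 8 and 9. Mouse 9 was thus near the low libraries, and mice 1 and 7 carry different labels. H2-Q7, a Qa-2 gene, had the lowest log2FC of the other heavy chains (-1.33, SE 0.720), with 1161, 458 and 497 normalized counts against 2364, 388 and 2537. The CD8 co-receptor gene Cd8a, which marks the cells that read class I peptides, was at 206, 13.1 and 23.1 normalized counts in colon mice 1, 2 and 4 and at 263, 5.04 and 206 in mice 7, 8 and 9.

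Colon and blood differed in most of these genes, as they did in most of all genes tested. How far depends on the scale on which the tissues are set side by side. On the TMM scale, where the median log2FC of all genes was 0.46 (colon over blood), 7 of the 10 were called, against 58.5% of 23258 genes tested. Higher in the colon were Tapbp (log2FC 1.42, SE 0.176, edgeR adjusted p 2.94e-05) and Psmb10 (1.05, SE 0.239, edgeR adjusted p 0.00223), 2 of 10 against 37.7% of all genes. Higher in the blood were Nlrc5 (-2.60, SE 0.582), B2m (-1.98, SE 0.362), Psmb8 (-1.78, SE 0.365), Psmb9 (-1.31, SE 0.321) and H2-D1 (-1.03, SE 0.245), 5 of 10 against 20.8% of all genes, with edgeR adjusted p from 0.000516 to 0.00348. H2-K1 (-0.52, adjusted p 0.0242, under the fold threshold), Tap1 (-0.94, adjusted p 0.0819) and Tap2 (-0.39, adjusted p 0.183) were not called. With library size alone, where the median of all genes was 2.57, the log2FC of 9 of the 10 was positive, 6 were called and all 6 were higher in the colon, where 84.5% of all genes were called, 76.9% higher in the colon and 7.55% higher in the blood. Thus the sign of H2-K1, H2-D1, B2m, Tap1, Tap2, Psmb8 and Psmb9 rests on the scaling. With the mouse as a replicate block 8 were called, 2 higher in the colon and 6 higher in the blood (55.4%, 35.5% and 19.9% of all genes), Tap1 being the added one (-1.20, adjusted p 0.0359). H2-D1 was not called without mouse 4 (-0.99) or mouse 8 (-0.80), Psmb10 without mouse 1 or mouse 9 (0.86 each), and Tap1 was called without mouse 9 (-1.32).

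Relative to the median of all genes the values of the members were close under TMM and under library size alone. The log2FC of Nlrc5 minus that median was -3.06 on the TMM scale and -3.04 under library size alone. For B2m these differences were -2.44 and -2.46, for Psmb8 -2.24 and -2.22, and for H2-K1 -0.98 and -0.97. Tapbp was above the median by 0.96 and 0.97, and Psmb10 by 0.59 and 0.61. With only the genes of the authors' tables, where the median of all genes was 0.21, the values were -2.72 for Nlrc5, -0.66 for H2-K1 and 0.91 for Psmb10, and that of Tap2 was -0.53 against -0.85 under TMM. In all 4 scalings tried (TMM, RLE, library size, and TMM without the genes left out of the authors' tables), 2 of the 10 were above the median. A change of library scaling moves all genes by nearly the same amount, and subtracting the median takes that shift out. The closeness under TMM, RLE and library size thus follows from the calculation and tests nothing. Only the last setting changes the genes over which the median is taken. On the TMM scale, Nlrc5 had 1.92 to 30.5 CPM (counts scaled to the same effective library size) in the colon libraries and 50.4 to 77.0 CPM in the blood libraries, while Tapbp had 75.8 to 121.8 CPM in the colon and 26.6 to 57.4 CPM in the blood. Tissue, extraction kit and the depletion kit, which removed globin RNA from the blood only, cannot be told apart.

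Ratios between the counts of genes in 1 library do not depend on the scaling. Psmb8 over Psmb5 was 0.900, 0.276 and 0.412 in colon mice 1, 2 and 4 and 1.34, 0.442 and 1.13 in mice 7, 8 and 9. In blood it was 3.26, 4.87 and 4.65 against 4.39, 4.18 and 3.31, so each blood library lay above each colon library. The mean log2 ratio was 2.67 lower in the colon (SE 0.447, exact paired permutation test, two-sided p = 0.0312, the smallest that 6 pairs allow, adjusted p 0.0547 over 7 ratios), lower in 6 of 6 mice. Psmb9 over Psmb6 was 0.128 to 0.493 in colon libraries and 0.891 to 1.26 in blood libraries, again without overlap (difference of mean log2 -2.24, SE 0.294, exact paired p = 0.0312, adjusted 0.0547). Psmb10 over Psmb7 was 0.602 to 1.11 in colon libraries and 0.723 to 1.23 in blood libraries, and differed by -0.17 (SE 0.192, exact paired p = 0.469). The colon and blood ranges of this last ratio overlapped, and whether the 3 differences differ from each other was not tested.

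The heavy chain to light chain ratios had higher means in the colon. H2-K1 over B2m was 1.15, 2.26 and 2.35 in colon mice 1, 2 and 4 and 1.01, 3.49 and 0.948 in mice 7, 8 and 9, and at most 0.752 in blood. The difference of mean log2 was 1.65 (SE 0.273), higher in 6 of 6 mice (exact paired permutation p = 0.0312, adjusted 0.0547). For H2-D1 over B2m it was 1.09 (SE 0.304), higher in 5 of 6 (exact paired p = 0.0625, adjusted 0.0875), and mouse 1 was the exception, at 1.56 in colon and 1.62 in blood. H2-K1 over H2-D1 was higher in the colon in 6 of 6 mice (0.56, SE 0.148, exact paired p = 0.0312, adjusted 0.0547). Tap1 over Tap2 was 0.82 lower in the colon (difference of mean log2 -0.82, SE 0.367, exact paired p = 0.0938, adjusted 0.109), and in the colon ran from 0.380 in mouse 8 to 1.68 in mouse 9. None of the 7 ratios passed an adjusted p of 0.05 in the paired test, while 4 did in the unpaired exact test (Psmb8 over Psmb5, Psmb9 over Psmb6, and H2-K1 and H2-D1 over B2m, adjusted p 0.00505 to 0.0152).

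**Figure D4:**
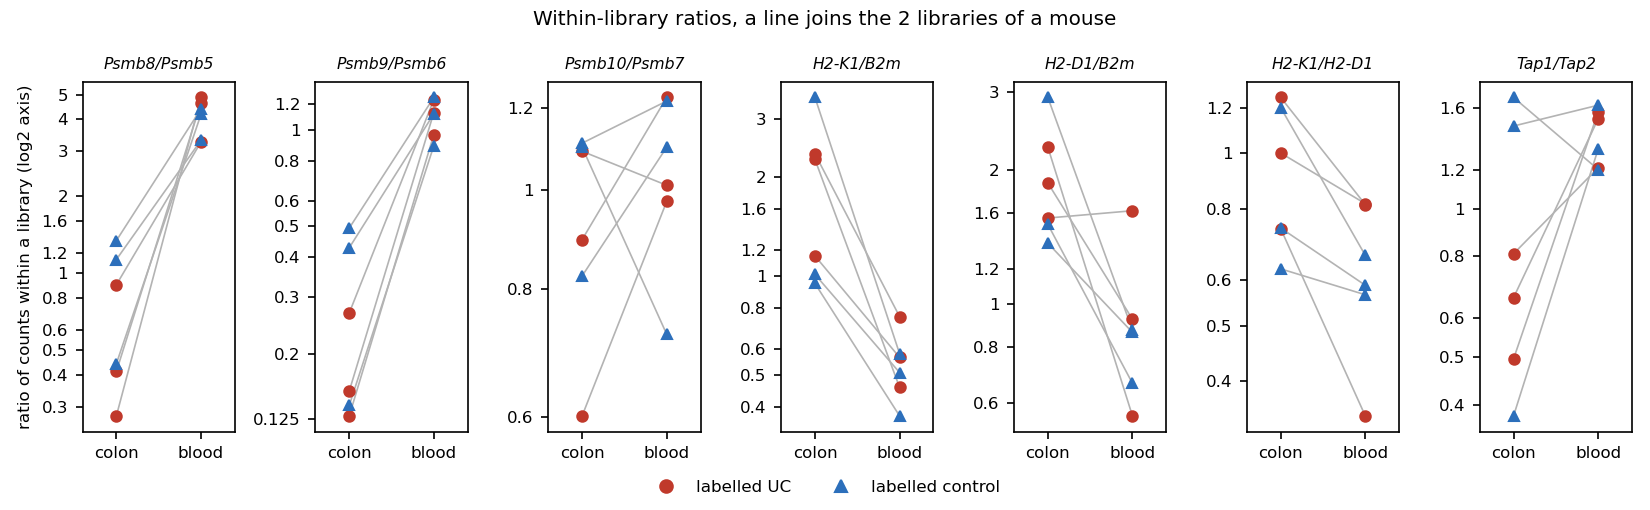
Ratio of the counts of 2 genes within a library (log2 axes, each panel with its own range) in colon and blood, with circles for mice labelled UC, triangles for those labelled control and a line joining the 2 libraries of a mouse number. In the panels of Psmb8/Psmb5, Psmb9/Psmb6 and H2-K1/B2m the colon and blood libraries do not overlap.

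Between the labelled groups 0 of the 7 ratios passed the threshold in either tissue, in an exact two-sided permutation test of 3 against 3 that cannot go below p = 0.1. In the colon the largest difference of mean log2 was that of Psmb8 over Psmb5, -0.90 (SE 0.705, exact permutation p = 0.2, adjusted 0.84), and in the blood that of H2-K1 over B2m, 0.27 (SE 0.279, exact permutation p = 0.5, adjusted 1). In the colon the 3 highest values of each immunoproteasome ratio and of Tap1 over Tap2 were those of mice 1, 7 and 9, and the 3 highest of each heavy chain ratio those of mice 2, 4 and 8.

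Other genes of the pathway between the tissues are given on the TMM scale, with the count under library size alone beside them. Of all genes tested, 37.7% were called higher in the colon and 20.8% higher in the blood (76.9% and 7.55% under library size alone). Of 17 other class I heavy chain genes 5 were called higher in the colon and 9 higher in the blood (8 and 3 under library size alone). H2-Q1 and H2-T3 had 0 counts in every blood library, and against a floor of 3 counts in each blood library their mean colon CPM was at least 221-fold and 93.8-fold higher. The bound for H2-T3 rests on colon mice 1 and 7, at 18.8 and 11.7 CPM, with the other 4 colon libraries between 0.0427 and 0.284 CPM, and it was 44.5 without mouse 1 and 70.1 without mouse 7, an alternative chosen after seeing the data. H2-T24 (-6.70, SE 0.535) and H2-Q10 (-4.70, SE 0.457) had the lowest log2FC, and H2-Q4, H2-Q6, H2-Q7, H2-T10, H2-T22, H2-M3 and Cd1d1 lay between -1.45 and -3.22. H2-Q2 (8.54, SE 0.945) and H2-M2 (4.51, SE 0.854), at most 19.9 and 4.96 normalized counts in any blood library, were among the 5 higher in the colon. The neonatal Fc receptor gene Fcgrt, which transports antibody, was higher in the colon (1.29, SE 0.237). Of the 5 loading and trimming genes 3 were called higher in the colon (5 under library size alone). These were Calr (3.59, SE 0.360), Pdia3 (2.28, SE 0.167) and Tapbpl (1.42, SE 0.211), which encode chaperones of the loading complex or a tapasin relative. Canx (1.00, SE 0.163) and Erap1 (0.94, SE 0.146), a chaperone and a peptide-trimming enzyme, were at or under the threshold of fold.

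The counts of the next lists stand beside the same shares of all genes, 37.7% and 20.8% (76.9% and 7.55% under library size alone). Among 18 constitutive proteasome and regulator genes 3 were called higher in the colon, Psmb2 (1.50), Psmb7 (1.20) and Psma4 (1.08), and 1 higher in the blood (17 and 1 under library size alone). The latter was Psme3, a subunit of a proteasome activator, with 3687 to 6573 normalized counts per library in the colon table and 31852 to 131598 in the blood table (log2FC -5.71, SE 0.375). Psme1 (-0.24, SE 0.186) and Psme2 (0.25, SE 0.165), the interferon-inducible activator subunits, were not called. Of 20 regulators 2 were called higher in the colon, the interferon-gamma receptor genes Ifngr2 (1.50) and Ifngr1 (1.08), and 9 higher in the blood (13 and 0 under library size alone). Among these were Irf9 (-1.45), Rfxank (-1.11), Creb1 (-1.31), Ifng (-2.00), Ifnar1 (-1.18), Ifnar2 (-2.97), Jak1 (-1.92) and Jak2 (-1.01). Irf1 (0.27, SE 0.312) and Rfx5 (-0.42, SE 0.253) were not called. All 7 class I receptor genes of T, NK and myeloid cells were called higher in the blood, under library size alone too, from Pirb (-3.72) to Klra4 (-9.28). Klra4 had 0 or 3 counts in each colon library, so the size of its log2FC is not well measured. Ptprc had a log2FC of -5.14, and the part of the leukocyte share of each tissue in these differences was not tested.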

How the data were processed

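Total RNA of colon and whole blood was sequenced by the study in 12 libraries. The authors trimmed the reads, removed those of ribosomal origin, used STAR for mapping to GRCm38, and estimated gene abundance with StringTie 1.3.4c. The deposited count table holds whole-number gene counts that the authors derived from transcript coverage, so a count is not a tally of reads. The deposited normalized tables, 1 per tissue, hold a signal for which the authors divided each count by 1 factor per library (the same for 100% of genes), and are comparable only within a tissue.

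The disease and tissue characteristics set the groups, and the titles the mouse numbers. The members and gene lists were chosen with earlier results of these data known. Named genes are the 10 members and, from lists of the pathway, those called, Psmb5, Psmb6, Psmb7, Psme1, Psme2, Irf1, Rfx5 and the loading genes, and the highest and lowest log2FC, besides the 5 genes most like the members per tissue. The values of 1 listed gene are not reported here.

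Counts were tested on the whole table with edgeR 4.0.16 (R 4.3.3; TMM, filterByExpr, glmQLFit, glmQLFTest, Benjamini-Hochberg), each tissue alone for the labels and all 12 libraries for the interaction and for tissue. SE is the log2FC over the square root of F. Ratios of counts were tested with exact permutation tests (scipy 1.17.1). The steps were tested on simulated data. Alternatives were RLE, library size only, other filters, DESeq2 1.42.0, limma-voom (limma 3.58.1), each mouse left out, a fit of all 12 libraries for the labels, and the replicate block. The study drew both tissues from the same mice, which pairs the numbers. Deviations from group means correlated between same-numbered libraries with r of 0.00468 to 0.227 over 15802 genes. No replicate pair of a group agreed within sampling noise. P-values of the label tests within a tissue and of the paired ratio test measure the spread between single mice. The tissue and interaction fits without the replicate block took the 2 libraries of a mouse as independent, as did the unpaired ratio test. Depth is the total count given above.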

Additional observations from a re-analysis of the deposited data

How the results depend on the processing

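The number of the 10 genes called stayed at 0 for the label in colon, in blood and for the interaction under every alternative run, the fits with a mouse left out included, as did that for the interaction in the fit with the replicate block (0 called). Between tissues it ran from 6 to 8, and from 6 to 7 with a mouse left out. Of all genes tested, 58.5% were called under TMM, 84.5% with library size only and 55.4% with the replicate block. Library size only ended the calls of Nlrc5 (-0.47), B2m, Psmb8 and Psmb9 and added H2-K1, Tap1 and Tap2. H2-D1 was called in both settings but in opposite directions, -1.03 under TMM and 1.11 under library size alone. Under other alternatives H2-D1 and Psmb10 lost and Tap1 gained the call, and H2-K1 gained it with no fold threshold. The within-library ratios past the threshold were 0 for the label in each setting, and between tissues 0, but 4 in the unpaired test with no replicate block. With a mouse left out the 5 pairs allow no p under 0.0625.

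With library size only, log2FC between tissues were reversed to 1.60 (H2-K1), 1.11 (H2-D1), 0.11 (B2m), 1.23 (Tap1), 1.77 (Tap2), 0.35 (Psmb8) and 0.83 (Psmb9), and in blood by label to -0.11 (H2-K1), -0.21 (H2-D1), -0.16 (Psmb8), -0.26 (Psmb9) and -0.18 (Psmb10). The median of all genes tested moved in the same directions, from 0.46 to 2.57 between tissues and from 0.04 to -0.27 in blood by label. The reversals are thus part of a shift of all genes with the scaling, and why the scalings differ was not tested. With the mice paired as a replicate block, 8 genes were called between tissues, and the block changed no call but that of Tap1 (log2FC -1.20).

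Leaving out 1 mouse at a time turned the sign of some small differences by label, whose ranges over the 6 fits follow. In the colon it was -0.27 to 0.04 for Tapbp. In blood it was -0.08 to 0.29 for H2-K1, -0.13 to 0.27 for H2-D1, -0.36 to 0.02 for B2m, -0.18 to 0.21 for Psmb8, -0.12 to 0.27 for Psmb9, -0.14 to 0.25 for Psmb10 and -0.10 to 0.18 for Nlrc5 (0.00 with all mice, -0.34 with library size only). The interaction was -1.14 to 0.06 for B2m and -0.79 to 0.01 for Psmb10. For log2 ratios in the colon it was -0.04 to 0.90 for H2-K1 over B2m and -0.16 to 0.38 for H2-D1 over B2m. In blood it was -0.03 to 0.28 for Psmb8 over Psmb5, -0.10 to 0.15 for Psmb9 over Psmb6, -0.12 to 0.25 for Psmb10 over Psmb7, -0.14 to 0.63 for H2-D1 over B2m, -0.18 to 0.43 for H2-K1 over H2-D1 and -0.04 to 0.18 for Tap1 over Tap2. None of these passed the threshold in any fit, and the ratios by label could not have passed it.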
